A study of Callithrix jacchus with 71 samples.

Results

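The genes described are 10 nuclear factors of pluripotent cells, NANOG, SALL4, PRDM14, ZSCAN10, UTF1, ZFP42, DPPA2, DPPA4, TFCP2L1 and ESRRB. They were chosen by name, as factors outside the EP-A set of reprogramming vectors, and all 10 were among the 23561 genes with a named row in the normalized count table. For each gene the level in every pluripotent cell was read off, and then which intermediate cells of reprogramming had reads of it.

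The cells came from the common marmoset, Callithrix jacchus, and were profiled one by one with RamDA-seq, which copies total RNA along the length of transcripts. The groups were 65 E01F A-2 induced neural stem cell-like cells (iNSLCs) at passage 1, 1 E01F A-2-2 iPSC, 4 no. 40 ESCs and 1 E01F fibroblast. E01F is a culture of dorsal skin fibroblasts of an embryonic marmoset, and it was electroporated with episomal vectors to give the A-2 clone, which was kept on mouse feeder cells in a medium of the naive type. The iPSC clone A-2-2 was derived from A-2 cells after a change to ESC medium. Per the methods of the study, the EP-A vectors encode LIN28, L-MYC, KLF4, SOX2 and OCT4 of human, with a dominant-negative form of mouse p53, whereas an EP-B set adds NANOG among other factors. The letter in the clone name points to EP-A, and no other label names the vectors of this clone. The iPSC and the ESCs are together called PSC cells. The iNSLCs and the iPSC each stand for 1 clone and the ESCs for 1 line, and the number of cultures behind each group is not given. Cells of 1 culture are not replicates of a condition, so values were described and no test between groups was made.

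Pluripotency is held by a network of transcription factors and chromatin proteins that keep one another's genes active and keep genes of differentiated lineages silent. POU5F1 (OCT4) and SOX2 stand at the centre of this network, with NANOG beside them. In reprogramming, transcripts of a factor that the vectors do not carry have to come from the cell's own gene. TFCP2L1 and ESRRB belong to the naive form of pluripotency in mouse, in which the cell resembles the early epiblast.

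The iNSLCs had 82268 to 695241 reads per cell with a median of 268128, the iPSC 302617 and the ESCs 134328 to 1003718. The fibroblast, at 1294430 reads, was the deepest cell. A value is given in the normalized counts of the authors, and a single read was worth 0.441 to 2.84 of them in iNSLCs, 1.07 in the iPSC and 0.405 to 2.55 in ESCs. The labelled cell types were checked against marker lists. All 10 PSC surface and epithelial markers had reads in the iPSC and in 3 of the 4 ESCs, whereas iNSLCs had 1 to 5 of them. The summed level of that list was 2.28 to 533 in iNSLCs, where PODXL alone reached 527, and 511 to 2255 in PSC cells. TDGF1 and CDH1, 2 defining surface proteins of primate PSCs, were at 0 in every iNSLC. Of the 10 neural stem cell markers, 8 to 10 had reads in each iNSLC and 3 to 5 in each PSC cell, in which PAX6, POU3F2 and NR2F1 were at 0. ESC cell 11 stood apart from the other ESCs. It was the shallowest PSC cell, had 7126 detected genes, had no read of the epithelial cadherin CDH1, against 147 to 258 in the other PSC cells, and held the highest level of the mesoderm factor TBXT among PSC cells, 158. Without it, the lowest marker sum among PSC cells was 827, and the median log2 ratio of the 10 genes given next was -5.56.

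NANOG, PRDM14, UTF1, ZFP42, DPPA2, DPPA4 and ESRRB had between 0 and 3 positive cells among the 65 iNSLCs, ZSCAN10 had 7 and TFCP2L1 had 10, and SALL4 alone had reads in every iNSLC. On the log2 scale with 1 added to each mean, the ratio of iNSLCs over PSC cells had a median of -5.32 over the 10 genes, against -0.11 over the 23396 genes with a read. All 10 were lower in iNSLCs, as were 53.9% of the 23396 genes, and the ratio of ESRRB was 0 when ESC cell 14 was left out. Of the 10, 8 were at least 4-fold lower, whereas 7.09% of the 23396 genes were. SALL4 and ESRRB were the exceptions. PSC surface and epithelial markers were lower in iNSLCs too, with the sums already given, and their part in the ratios was not tested. DPPA2 and ESRRB did not reach a mean of 1 over iNSLCs and PSC cells. Among the 14045 genes that did, 8.59% were at least 4-fold lower. The call of DPPA2, at -2.19, was lost when ESC cell 12 or ESC cell 14 was left out or every cell was scaled to the same total, at -1.92 in each case. When 10 was added to each mean in place of 1, the median was -2.68 and 6 genes were at least 4-fold lower, without DPPA2 at -0.48 and UTF1 at -1.36. A ratio against a gene with no read in iNSLCs depends on the value added, and with PRDM14, UTF1 and ESRRB set to the floor of 3 reads over the iNSLCs the median was -5.87. In the plot of the 10 genes by cell, the blue iNSLC points lie on the baseline for every gene but SALL4, apart from a few cells.

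**Figure D1:**
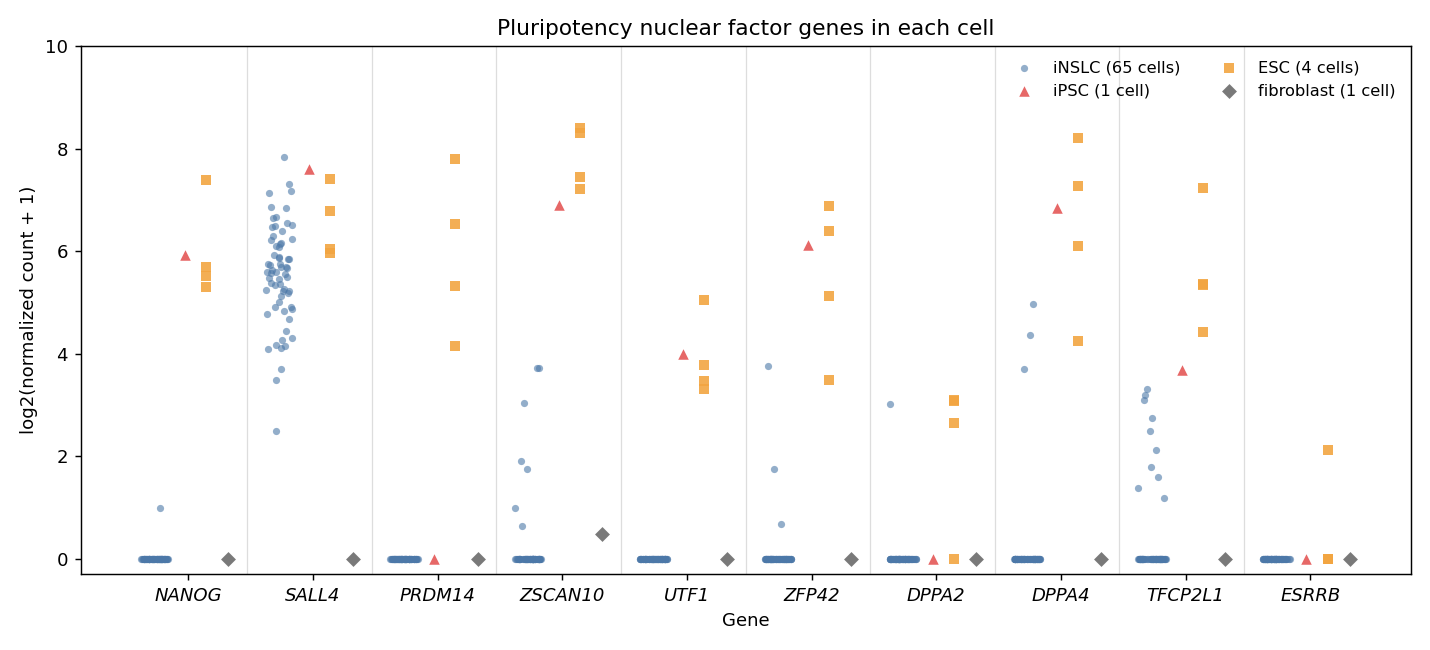
Level of each of the 10 genes in single cells, as log2 of the normalized count plus 1, with 1 point per cell for 65 iNSLCs, 1 iPSC, 4 ESCs and 1 fibroblast (points of iNSLCs are spread sideways for sight). SALL4 is above 0 in all 65 iNSLCs, whereas NANOG is above 0 in 1 of them and PRDM14, UTF1 and ESRRB in none.

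NANOG is a homeodomain protein and one of the central regulators of the network. Among the 65 iNSLCs it had 1 read, in cell 83, worth 1.001 normalized counts. The share of iNSLCs with a read was 1.54% (exact Clopper-Pearson 95% interval 0.0389 to 8.28). The iPSC had 59.8 normalized counts, and ESC cells 10, 11, 12 and 14 had 44.9, 38.3, 166 and 50.8. The fibroblast had none. The groups did not overlap, and the mean was 0.0154 in iNSLCs against 71.9 ± 53.0 in PSC cells (SD, n = 5 cells), a log2 ratio of -6.17. At the level of the lowest PSC cell, 13.5 reads would stand in the shallowest iNSLC and 31.7 in the median one, or 15.8 and 37.2 without ESC cell 11. Expected reads, here and below, cover read sampling only, and not losses before sequencing or differences between cells. In ESC cell 11, for example, CDH1 had no read, against 147 to 258 normalized counts in the other PSC cells.

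SALL4, a zinc finger protein that recruits repressor complexes and is active in ESCs, germ cells and several embryonic tissues, was the exception. Its level in iNSLCs was 4.59 at the lowest, 47.1 at the median and 228 at the highest. The lowest came from 3 reads in cell 75 and the highest from 473 reads in cell 55. The iPSC had 193, and ESC cells 10, 11, 12 and 14 had 110, 61.3, 168 and 65.0, whereas the fibroblast, the deepest cell, had no read. The iNSLCs and the PSC cells overlapped, since 20 iNSLCs lay at or above the lowest PSC cell and 1 lay above the highest. Without ESC cell 11 the lowest PSC cell was at 65.0, and 20 iNSLCs again lay at or above it. When every cell was scaled to the same total, the lowest PSC cell was ESC cell 14 at 52.5. The iNSLCs at or above it were not counted for SALL4 alone.

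The mean of SALL4 was 56.6 ± 39.2 in iNSLCs (SD, n = 65 cells) and 119 ± 59.7 in PSC cells (SD, n = 5 cells), a log2 ratio of -1.06. The middle of the distribution was broad, with quartiles of 31.2 and 70.05 and a coefficient of variation of 69.2%. Reads in every iNSLC are seldom met in this table, and 6.99% of the 23396 genes had them. Across the 65 iNSLCs the level went only weakly with the number of reads (Spearman's rho 0.222) and of detected genes (0.318), which share the library of the same cell. When every cell was thinned to 134328 reads, all 57 iNSLCs of that depth or more kept reads of SALL4. They had 3 to 112 reads with a median of 23, against 24 to 84 in PSC cells. The plot of ranked SALL4 levels shows a gradient over the iNSLCs, with the last cell set off from the rest.

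**Figure D2:**
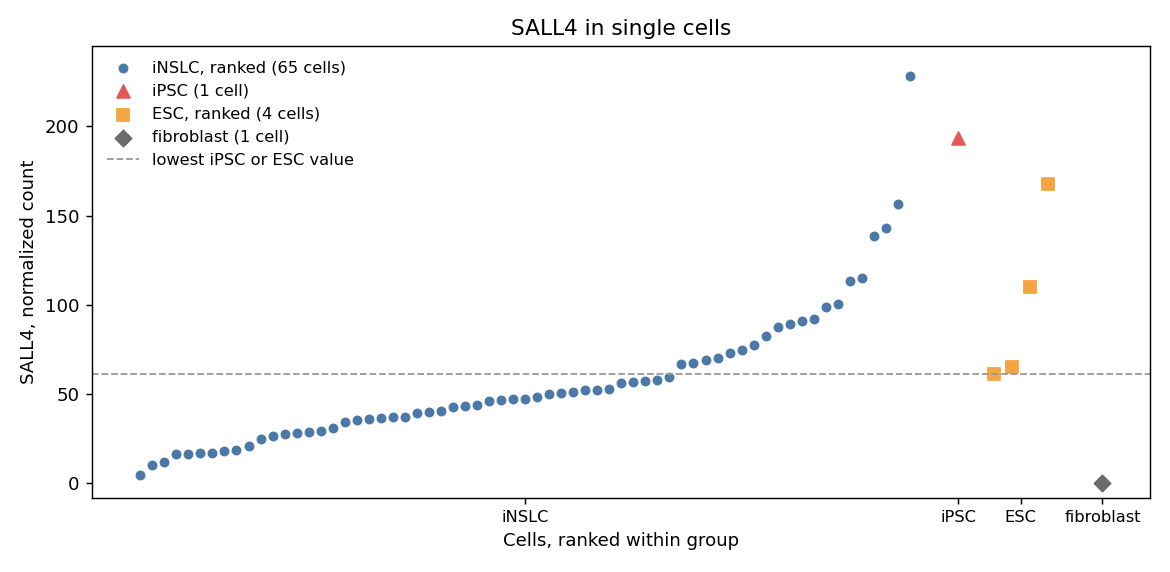
SALL4 in normalized counts, 1 point per cell, with cells ranked within iNSLCs and within ESCs, and the lowest PSC value drawn as a dashed line at 61.3. Of the 65 iNSLCs, 20 lie at or above the line, and the fibroblast is at 0.

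PRDM14 is a PR domain zinc finger protein that represses differentiation genes in ESCs and is needed for germ cell formation in mouse. No iNSLC had a read, and 0 of 65 cells allows a share of cells with a read of up to 4.62%. The iPSC had no read either. ESC cells 10, 11, 12 and 14 had 38.9, 91.9, 220 and 16.7 normalized counts, from 96, 36, 407 and 20 reads, and the fibroblast had none. PRDM14 therefore split the PSC cells, present in all 4 ESCs and not detected in the iPSC. In the iPSC, 3 reads would be worth 3.21 normalized counts, below every ESC. At the lowest ESC level, 5.87 reads would be found in the shallowest iNSLC and 13.8 in the median one. With the floor of 3 reads over all iNSLCs in place of 0, the iNSLC mean was at least 1188-fold below the observed PSC mean of 73.4. The floor bounds the iNSLC side only, and the PSC mean leans on ESC cell 12. Without that cell the log2 ratio, with 1 added to each mean, was -5.24 in place of -6.22.

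ZSCAN10, a SCAN domain zinc finger protein of ESCs that acts together with POU5F1 and SOX2 in mouse, had reads in 7 iNSLCs, 10.8% of them (interval 4.44 to 20.9). Cell 42 had 22 reads, cells 61 and 89 had 5 each, cell 67 had 2, and cells 52, 91 and 95 had 1 each. The highest of these, cells 42 and 61 at 12.3 and 12.1 normalized counts, stayed far below the PSC cells. The iPSC had 118, and ESC cells 10, 11, 12 and 14 had 336, 148, 172 and 314. The fibroblast had 1 read, worth 0.405, and this was the only read of any of the 10 genes in that cell. The 3 iNSLCs with 1 read matched the fibroblast in reads, but at lower depth. Their levels were 0.557, 2.37 and 0.992 in cells 52, 91 and 95, each above that of the fibroblast and resting on 1 read. The log2 ratio of ZSCAN10 was -7.10, where iNSLCs averaged 0.589 and PSC cells 218 ± 100.2 (SD, n = 5 cells).

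UTF1 is a chromatin-bound protein of undifferentiated ESCs. It had no read in any iNSLC, whereas the iPSC had 15.0 normalized counts and ESC cells 10, 11, 12 and 14 had 8.91, 12.8, 31.9 and 10.0. The fibroblast had none. All 5 PSC cells were thus positive, from 5 to 59 reads. At the lowest PSC level 3.14 reads would be found in the shallowest iNSLC and 7.38 in the median one. A single cell without a read thus says least where it is shallow. The iNSLC mean was at least 254-fold below the observed PSC mean of 15.7, against the same floor. That PSC mean also leans on ESC cell 12, without which the log2 ratio was -3.66 in place of -4.06.

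ZFP42 (REX1) is a zinc finger protein related to YY1 and a classical marker of undifferentiated ESCs. It had reads in 3 iNSLCs, 15 in cell 25 and 1 each in cells 49 and 91. Cell 25 had 12.5 normalized counts, cell 91 had 2.37 and cell 49 had 0.596. The iPSC had 68.4 and ESC cells 10, 11, 12 and 14 had 34.0, 10.2, 117 and 82.5, with none in the fibroblast. Cell 25 overlapped the PSC range, but only through ESC cell 11, whose value rests on 4 reads. iNSLCs averaged 0.238 and PSC cells 62.4 ± 41.7 (SD, n = 5 cells), a log2 ratio of -5.68.

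DPPA2 and DPPA4 are related SAP domain proteins that bind chromatin as a pair, and their genes are neighbours in the RefSeq marmoset annotation. DPPA4 had reads in 3 iNSLCs, 35 in cell 26, 25 in cell 80 and 8 in cell 62, worth 19.5, 30.2 and 12.1 normalized counts. The iPSC had 113 and ESC cells 10, 11, 12 and 14 had 68.0, 17.9, 295 and 152, with none in the fibroblast. Cells 26 and 80 exceeded ESC cell 11, the lowest PSC cell at 7 reads, and no other PSC cell. The other 62 iNSLCs had no read, so DPPA4 was present at 8 to 35 reads in a few cells and not spread thinly over many. Its 68 reads in iNSLCs gave a mean below 1, against 129 ± 105.5 in PSC cells (SD, n = 5 cells), a log2 ratio of -6.06.

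DPPA2 was read in 1 iNSLC only, cell 91, with 3 reads worth 7.10 normalized counts. The iPSC and ESC cell 11 had none, and ESC cells 10, 12 and 14 had 5.26, 7.56 and 7.50. Cell 91 therefore lay within the range of the positive ESCs. In ESC cell 11, 3 reads would be worth 7.66, so its missing reads are not below the level of the other ESCs at this depth, whereas in the iPSC the same floor was 3.21. No iNSLC had reads of both DPPA2 and DPPA4, which says little with 1 and 3 positive cells.

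TFCP2L1, a transcription factor of the CP2 family, had reads in 10 iNSLCs, the most after SALL4 and 15.4% of them (interval 7.63 to 26.5). The 10 cells were 35, 50, 56, 58, 60, 71, 74, 75, 83 and 87, with 1 to 9 reads each and 38 reads in all. Their levels ran from 1.27 in cell 50 to 8.87 in cell 60. The iPSC had 11.8, and ESC cells 10, 11, 12 and 14 had 39.3, 20.4, 40.0 and 148, with none in the fibroblast. No iNSLC reached the iPSC, which was itself the lowest PSC cell. On average iNSLCs had 0.699 and PSC cells 51.9 ± 55.2 (SD, n = 5 cells), a log2 ratio of -4.96.

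ESRRB, an orphan nuclear receptor that can stand in for NANOG in mouse ESCs, was close to absent from all groups. It had no read in any iNSLC, in the iPSC, in the fibroblast or in ESC cells 10, 11 and 12, and 4 reads in ESC cell 14, worth 3.33 normalized counts. At that level 1.17 reads would be found in the shallowest iNSLC and 2.76 in the median one, so a single iNSLC without a read says little. Over all 65 iNSLCs the mean was at least 10.8-fold lower than in PSC cells, against the same floor, but this rests on the 4 reads of ESC cell 14, without which no cell had a read.

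How many of the genes each cell carried was counted next. SALL4 was the only one in 43 of the 65 iNSLCs, 20 had 1 further gene, cell 83 had 3 genes in all and cell 91 had 4. The iPSC had reads of 7 genes and the ESCs of 8 to 10, and the fibroblast of 1. At least 1 gene other than SALL4 was thus read in 22 iNSLCs, 33.8% of them (interval 22.6 to 46.6), and at least 2 such genes in 2 iNSLCs, 3.08% (interval 0.375 to 10.7). Cell 91 had ZSCAN10 and ZFP42 at 1 read each and DPPA2 at 3 reads, and cell 83 had NANOG at 1 read and TFCP2L1 at 2. When at least 2 reads were asked of each gene, no iNSLC had 2 genes other than SALL4. The sum of the 10 genes ran from 9.19 to 228 normalized counts across iNSLCs (median 48.8). In PSC cells it lay between 401 and 1218, or at 579 and above once ESC cell 11 was left out. The groups thus did not overlap in the sum. In iNSLCs, however, the sum was mostly SALL4, whose own median was 47.1. The highest sum, in cell 55, was SALL4 alone. The gap in the sum is therefore not a result for each of the 10 genes. It also adds up genes whose levels were not compared, since transcript lengths were not used.

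A rule of presence, which uses no fold, was also applied. Reads in at least 4 of the 5 PSC cells and in at most 3 iNSLCs were found for 5 of the 10 genes, PRDM14, DPPA4, ZFP42, UTF1 and NANOG, and for 1.44% of the 23396 genes. Depth was looked at beside these counts. The 22 iNSLCs with a gene other than SALL4 had 128362 to 549078 reads with a median of 277615. The median over all iNSLCs, which include the 22, was 268128. No iNSLC below 128362 reads had such a gene, and these went down to 82268 reads. The part of depth in the counts was not tested. At an equal 134328 reads, 16 of 57 iNSLCs had such a gene. ZSCAN10 was then read in 3 cells, DPPA4 in 3, TFCP2L1 in 8, and ZFP42 and NANOG in 1 each. Cells 61 and 91, with 131531 and 128362 reads, were too shallow to be thinned and are not among the 57. Cell 91 was the only iNSLC with DPPA2, so that gene could not be looked at in this way. The reads of these genes by cell, as drawn in the grid of positive cells, form single boxes with few shared columns.

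**Figure D3:**
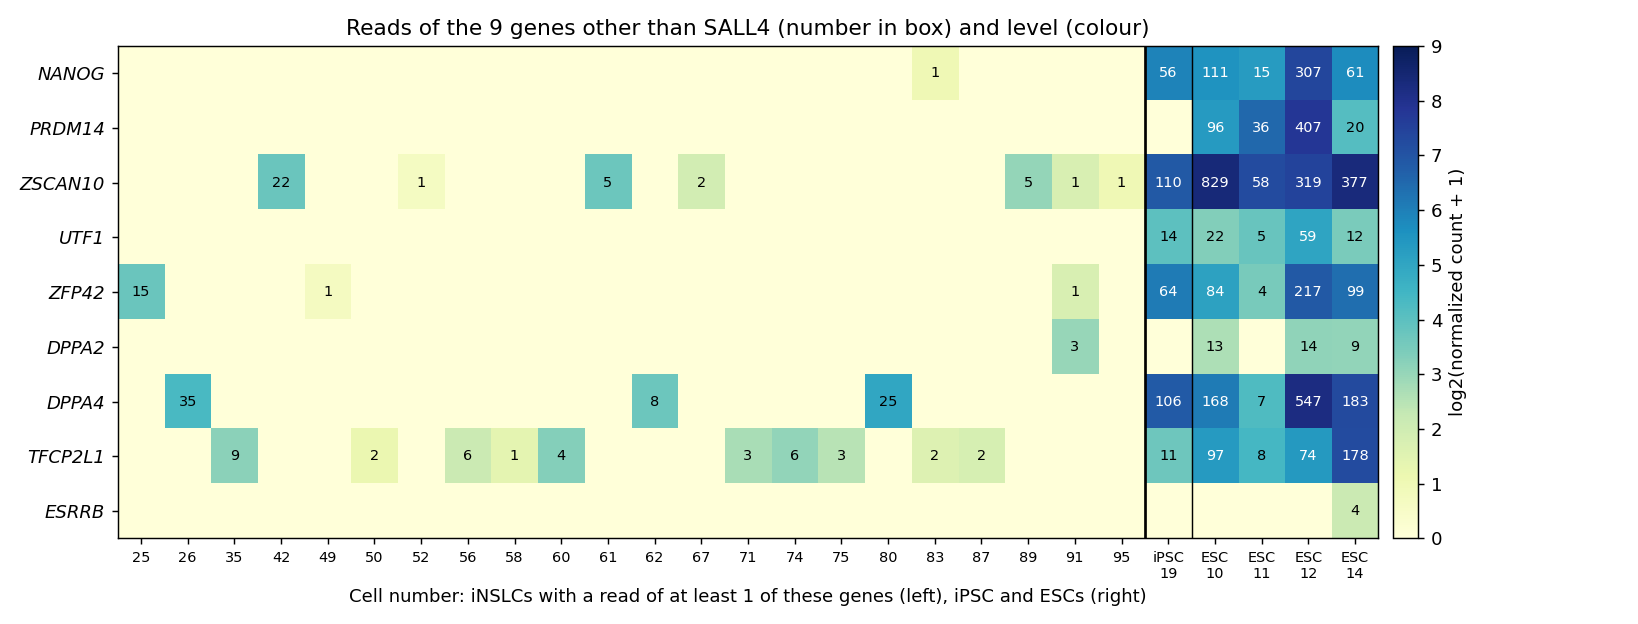
Reads (numbers) and levels (colour, log2 of the normalized count plus 1) of the 9 genes other than SALL4, with 1 column per cell for the 22 iNSLCs with a read of any of them, then the iPSC and the 4 ESCs. Of the 22 iNSLC columns, 20 hold a single gene, cell 83 holds 2 and cell 91 holds 3, and most columns of PSC cells are filled.

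The 22 cells kept the markers of iNSLCs. PAX6, a neural stem cell transcription factor, was read in all 22 at 2.22 to 46.8 normalized counts, and the intermediate filament gene VIM stood at 1081 to 5103, against at most 15.3 in PSC cells. The fibroblast had VIM at 7161, above all 22, and no read of PAX6, so VIM sets these cells apart from PSC cells only. Of the PSC surface and epithelial markers, TDGF1 and CDH1 were at 0 in all 22. The epithelial adhesion gene EPCAM was read in 1 of them, cell 83, at 5.01, and GDF3, a PSC growth factor gene, in cells 61 and 91, at 2.42 and 4.73. Over all 65 iNSLCs, EPCAM was read in 4 and GDF3 in 3. The keratin genes KRT8 and KRT18 were each read in 7 of the 22, and in 23 and 17 of all 65 iNSLCs. The sialomucin gene PODXL was read in 64 of all 65. The summed list had a median of 111 in the 22 cells and of 66.8 over all iNSLCs. In iNSLCs the sum was mostly PODXL, whose own median over all 65 was also 66.8 and whose log2 ratio was -1.09. The medians of the sum thus say little about the other markers. The part of the list in the counts was not tested. POU5F1 was read in 8 of the 22 and in 24 of all 65 iNSLCs. It stood at 50.8 in cell 25, the ZFP42 cell, and had no read in cell 91, which carried the most of the 10 genes. The correlation of each of the 22 cells with PSC cells, as the median Pearson's r across genes, was 0.394 to 0.544, against 0.369 to 0.544 over all iNSLCs and 0.597 to 0.756 among PSC cells. The fibroblast had 0.504, above the iNSLC median of 0.464. Without ESC cell 11 the values were 0.397 to 0.577 over all iNSLCs, 0.679 to 0.764 among PSC cells and 0.535 in the fibroblast. Genes are not independent replicates and depth was not matched, so these values only place the cells. Cell 83 had the highest r of the iNSLCs and 12739 detected genes. Its lead was very small, since cell 84, with SALL4 alone of the 10 genes, was at 0.543.

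Levels that reached a PSC cell were rare outside SALL4. The lowest positive PSC cell was met by cell 91 for DPPA2, by cells 26 and 80 for DPPA4 and by cell 25 for ZFP42. With SALL4 included, 23 iNSLCs met it in at least 1 gene. When every cell was scaled to the same total 31 did, so this count depended on the scaling. Without scaling and without ESC cell 11, 21 iNSLCs met it. None of the 65 met it for NANOG, PRDM14, ZSCAN10, UTF1 or TFCP2L1.

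Cell numbers fall into a lower and a higher range that differ in depth, with a median of 208746 reads in iNSLCs numbered 57 and up and 357910 in those up to 56. Labels do not say what the numbers stand for, and the boundary was taken from an earlier look at these data. A gene other than SALL4 was read in 14 of 38 iNSLCs (36.8%) from 57 up and in 8 of 27 (29.6%) up to 56, and the median of SALL4 was 50.9 and 46.7. Both ranges thus held positive cells, and the part of cell number in these counts was not tested.

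Within the PSC cells, the iPSC lay outside the range of the 4 ESCs for 4 of the 10 genes, a share near the 32.2% of the 14763 genes with a PSC mean of at least 1. It was below all ESCs for ZSCAN10, PRDM14 and TFCP2L1, as it was for 12.5% of those genes, and above all ESCs for SALL4, as it was for 19.7%. ESRRB did not reach that mean. Without ESC cell 11, DPPA2 joined the genes below. The iPSC had DPPA4, ZFP42, UTF1 and NANOG within the ESC range. Its PSC surface and epithelial markers summed to 2255, above the 511 to 1988 of the ESCs. Most of that sum came from KRT18 at 619, PODXL at 511 and KRT8 at 452. EPCAM and CDH1 were also above all ESCs, whereas GDF3, CDH3 and ESRP1 were below all of them. SOX2 was lowest in the iPSC among PSC cells, at 4.27. The trophoblast markers GATA2, GATA3, TFAP2A and HAND1 stood at 38.5, 21.4, 68.4 and 10.7 in the iPSC, with an ESC mean of 0 for each. What sets this cell apart was not tested. With 1 iPSC, a difference between the 2 kinds of PSC cannot be told apart from the spread between single cells.

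Among the ESCs, cell 12 was the highest for 7 of the 10 genes, PRDM14, DPPA2, DPPA4, ZFP42, UTF1, NANOG and SALL4, and for 26.9% of the 14763 genes. For DPPA2 the lead was small, at 7.56 against 7.50 in cell 14. When every cell was scaled to the same total the count was 6, and with cells thinned to equal reads it was 7. Of the 10 PSC surface and epithelial markers 7 were also highest in cell 12, among them TDGF1 at 160 against 32.4 to 71.5 in the other ESCs, as were 3 of the 5 vector factors, with POU5F1 at 205 against 10.2 to 53.8. Of the 17 other pluripotency nuclear factors with a row, however, 5 were highest in cell 12, 8 in cell 10 and 4 in cell 14. Cell 14 showed another profile. It had the highest TFCP2L1, the only ESRRB and the lowest PRDM14, and it was also the highest ESC for DPPA5 at 70.8 and for the Krüppel-like factor KLF5 at 20.8. These are single cells of 1 line, and what sets cells 12 and 14 apart was not tested.

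Related genes and partners were set beside the 10 genes to see how far the pattern reached. A list of 20 other pluripotency nuclear factors had 17 with a row. Of these, 10 were at least 4-fold lower in iNSLCs, none was 4-fold higher, and the median log2 ratio was -2.38 (-3.14 with genes at 0 set to the floor). DPPA3, DPPA5, FOXD3, OTX2, NR5A2 and KLF2 had no read in iNSLCs. The de novo methyltransferase gene DNMT3B was read in 90.8% of iNSLCs, at a mean of 23.2 against 660 in PSC cells, a log2 ratio of -4.77. Not all of this list were lower, since the neural ectoderm factors ZIC2 and SOX3 had ratios of 1.33 and 0.89.

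The factors carried by the vectors went both ways. POU5F1 and KLF4 were lower in iNSLCs, at -3.41 and -4.26, and LIN28A was at -1.58, whereas SOX2 and MYCL were higher, at 1.97 and 2.68. SOX2 and LIN28A had reads in every iNSLC, as SALL4 did. How far reads of the human vector genes are counted in these rows is not given in the sources used here.

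Family relatives of the 10 genes followed no common direction. Of 10 such genes the epithelial factor GRHL2, a relative of TFCP2L1, was at least 4-fold lower in iNSLCs, at -5.23, SALL1 was at least 4-fold higher, at 2.35, and the median was 0.16. Among the SALL family SALL2 was read in every iNSLC, at a mean of 56.9 against 24.9 in PSC cells (log2 ratio 1.16), SALL1 in 80.0% of iNSLCs, and SALL3 in 33.8%, with a ratio of -1.10. YY1, the widely expressed relative of ZFP42, was read in every iNSLC and had a ratio of 0.17. ESRRA had -1.21 and ESRRG 1.47, so the relatives of ESRRB had reads where ESRRB had none.

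Partner proteins, such as the PRDM14 partner CBFA2T2 and the subunits of the NuRD repressor complex that SALL4 binds, showed none of the 9 past 4-fold, with a median of -0.11, beside -0.11 for all genes. CBFA2T2 was read in 95.4% of iNSLCs at -0.84, and the NuRD helicase CHD4 in every iNSLC at -0.25. For the lists of other cell types, 9 of 10 PSC surface and epithelial markers were at least 4-fold lower in iNSLCs (median -6.20) and 9 of 10 neural stem cell markers at least 4-fold higher (median 4.41). The fibroblast list had 1 of 10 at least 4-fold lower and 2 higher. Mesoderm and endoderm markers had 2 of 5 with a row at least 4-fold lower, trophoblast markers 2 of 4 and germ cell markers none of 5. None of them was 4-fold higher. The trophoblast count rests on the iPSC alone, since each of the 4 markers with a row had a mean of 0 in ESCs. In the plot of ratios by list the 10 genes lie lowest, followed by the other pluripotency factors, and the relatives and partners lie around the median of all genes.

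**Figure D4:**
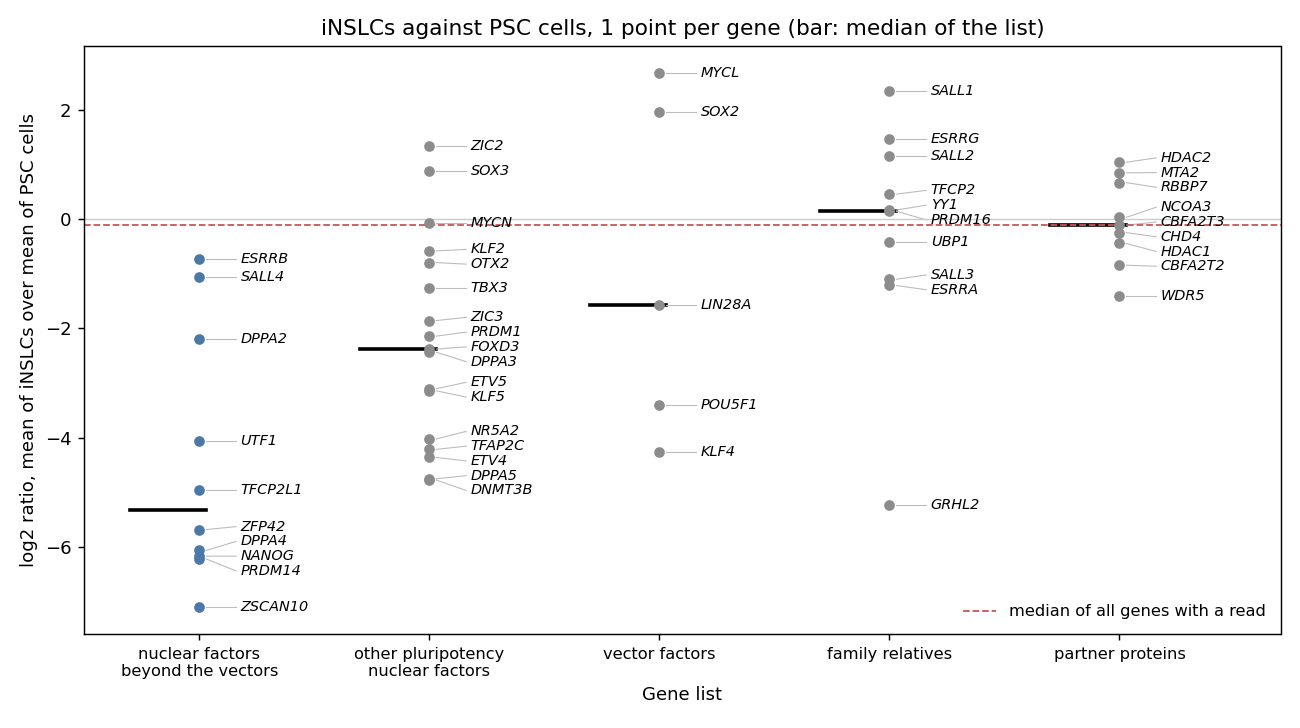
Log2 ratio of the mean of 65 iNSLCs over the mean of 5 PSC cells, with 1 added to each mean, 1 point per gene in 5 lists and a bar at the median of each list. Medians are -5.32 for the 10 genes, -2.38 for other pluripotency nuclear factors, -1.58 for vector factors, 0.16 for family relatives and -0.11 for partner proteins, and the dashed line marks -0.11 for all genes with a read.

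Genes whose levels ran most like the sum of the 10 were sought over all 71 cells, by Pearson's r of log2 values. The highest were the citrate transporter gene SLC13A5 (0.706), the gut hormone gene PYY (0.697), TDGF1, A4GALT, TNFRSF11A and MMP25 (0.675 each), the epithelial zinc finger gene OVOL2 (0.674) and IGSF22 (0.673). All 8 had reads in each PSC cell and none in the fibroblast. SLC13A5 was read in 2 iNSLCs and PYY in 4, and the other 6 in none. Points of 1 cell share its library and depth, and the values rest largely on the gap between the 5 PSC cells and the other cells.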

How the data were processed

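Single cells were profiled by RamDA-seq. The signal in the table is the normalized counts that the authors deposited, in which each cell has 1 factor. Whole reads were recovered from the value of 1 read per cell, with 100% of values within 0.02 of a whole read. Seurat 3.0.0, featureCounts 1.5.1, STAR 2.6.0c and Trimmomatic are listed in the submitters' processing notes. The role of each tool, the annotation and the genome build were not given in the sources used here. An unnamed row, with no more than 0.449% of the total in any cell, was left out.

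Ratios were log2 of group means after a pseudocount of 1. "At least 4-fold lower" means a log2 ratio of -2 or less. Shares have exact Clopper-Pearson 95% intervals, which like the floor of 3 reads over the 65 iNSLCs (0.0618 normalized counts) cover counting error only. A share of 0 is limited at 3 cells of the total. Levels were not compared between genes, since transcript lengths were not used. Thinning drew 134328 reads per cell and left out 8 shallower iNSLCs. Steps were tested on simulated data. Python 3.11.15, pandas 2.3.3, numpy 2.4.6, scipy 1.17.1 and matplotlib 3.10.9 were used.

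The members and the 11 lists (103 genes, 8 without a row) were chosen with earlier results of these data known. The text names all 10 members and the 8 genes most like the summed members, leaving out symbols that start with LOC. A limit of 6 genes per list, by size of ratio, was planned but not kept. Genes of the lists are therefore examples and not a ranking. Among the other pluripotency nuclear factors, ETV4 at -4.36 and TFAP2C at -4.21 are named only here. DPPA5 and KLF5 in ESC cell 14, and TBXT and CDH1 in ESC cell 11, were picked after their values were seen. So were SOX2 and the single markers given for the iPSC. Alternatives were a pseudocount of 10, filters on the mean, scaling to the median total, medians, thinning, stricter limits for a read, leaving out SALL4 or TFCP2L1, leaving out the 10% of iNSLCs lowest in detected genes, and dropping 1 PSC cell at a time. Counts over the 9 genes other than SALL4, the count for ESC cell 12 and values without ESC cell 11 beside the lowest PSC cell were added after seeing the data. All 10 symbols matched the RefSeq gene table of assembly calJac240_pri, which was used for names and neighbours only.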

Additional observations from a re-analysis of the deposited data

Results flagged for a closer look

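Among the 4 ESCs, 4 of 12 measures had 1 cell far from the other 3, by the gap to the nearest cell as a share of the whole range. For a single measure with normally distributed values, chance alone gives about 1 in 20. Counts of single cells need not be so distributed, so 4 of 12 cannot be read against that rate. The measures share the same 4 cells of 1 line, so they are not independent. NANOG was 166 normalized counts in cell 12, against 38.3 to 50.8 in the other ESCs. UTF1 was 31.9 in cell 12, against 8.91 to 12.8. TFCP2L1 was 148 in cell 14, against 20.4 to 40.0. ESRRB was 3.33 in cell 14, from 4 reads, and 0 in the other ESCs, where any read would have set the cell apart.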

How the results depend on the processing

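No direction reversed. Of 100 alternative values for the ratios of single genes, 98 were lower in iNSLCs and the other 2, both of ESRRB, were 0. Of the 100, 92 moved by less than the SD over PSC cells. On the log2 scale that SD ran from 0.668 for ZSCAN10 to 2.99 for PRDM14, a wide limit. The loss of the DPPA2 call, at -1.92, fell within its SD of 1.62. The other 8 values moved further, all of them with a pseudocount of 10. Under it the median of the 10 genes was -2.68 and 6 were at least 4-fold lower. Over the PSC cells left out in turn, that median was -5.56 to -4.87, and 7 to 8 genes were at least 4-fold lower. With a minimum mean of 10, only 2 were counted, since the mean is taken over 65 iNSLCs and 5 PSC cells and the filter removes genes absent from iNSLCs. Scaling every cell to the median total shifted the median of well-expressed genes by 0.28 on the log2 scale. With SALL4 left out, 22 iNSLCs had at least 1 of the genes and 2 had at least 2. With all 10 genes, 22 iNSLCs had at least 2, against 14 when 3 reads were required, 6 at a value of at least 10 and 13 without TFCP2L1. The 2 iNSLCs with 2 genes other than SALL4 became 1 without TFCP2L1 and 0 when 2 reads were required. It was also 0 after thinning, for which cell 91 was too shallow and was left out. No paired analysis was possible because the groups share no cell numbers. Depth limits the genes at low levels, DPPA2, UTF1 and ESRRB, for which a median iNSLC at the lowest positive PSC level would have 4.36, 7.38 and 2.76 reads.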
